A study of Homo sapiens with 2 samples.

Results

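The genes described here are 8 transcriptional regulators of deep-layer cortical projection neurons, BCL11B, TBR1, FEZF2, SOX5, ZFPM2, TLE4, NEUROD2 and NEUROD6. They were taken by name from the 62704 genes counted in each of 2 split-seq libraries of cerebral organoids, and all 8 were present in both. Their names, and no measured value, make up the rule, although the set was proposed with earlier results of these data known. They were read in barcodes that exceeded 500 genes and 1000 transcripts, and in which mitochondrial genes took no more than 20% of the transcripts.

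All tissue came from 1 human embryonic stem cell line, H9. The time-course library held whole cells from control cerebral organoids (CO) at days 45, 55 and 70, from organoids dissociated at day 45 and reaggregated (DISS) at days 48, 55 and 70, and from organoids freed of Matrigel at day 13 and held in 3% agarose (CONS) at day 55. The second library held nuclei. The study's methods describe it as CO at day 45, taken whole or as a suspension, whereas its label also names dissociated and embedded tissue. Every barcode of a library carried the same sample name, so that condition, day and organoid could not be told apart. Each library therefore stood as 1 sample, and no test was possible: the intervals below cover counting error only, and the spread over sub-libraries (aliquots of the same barcoded cells, 8 for cells and 2 for nuclei) is technical.

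Of 20178 cells that passed the limits, 19169 were used, with a median of 2588 transcripts. For nuclei the corresponding values were 14228, 13801 and 3803. Levels are given as counts per 10000 transcripts summed over all barcodes of a type. Types were named from marker lists that hold none of the 8 genes. They comprised 1841 cells and 4716 nuclei like radial glia (RG-like), 1466 and 2107 dividing RG-like, 260 and 492 like intermediate progenitors (IPC-like), 1128 and 714 IPC-like with neuronal markers, and 1134 and 2570 excitatory neuron-like. The excitatory neuron-like cells had 12 of 12 general neuron markers and 8 of 9 excitatory markers raised. Among the excitatory neuron-like nuclei, a cluster of 935 had 12 of 12 general neuron, 6 of 9 excitatory and 5 of 9 IPC markers raised. Cajal-Retzius-like barcodes numbered 529 and 97, and both had 8 Cajal-Retzius markers raised. The cells among them also had 7 of 9 inhibitory, 6 non-telencephalic and 3 RG markers raised and 0 of 12 general neuron markers, whereas the nuclei had 10 of 12 general neuron markers and none of those others. The choroid plexus-like type held 1193 cells and 348 nuclei. A cortical hem-like type held 309 cells, 60.8% of them from 1 first-round well. The IPC-like cells had 36.9% from 1 well, 9 of 9 IPC markers and 13 of 14 division markers raised, and division genes such as KIF20A and CCNB1 among their leading genes beside EOMES and NEUROD4. The IPC-like nuclei had 6 of 9 IPC markers and 1 of 14 division markers raised, so that the type differs in division between the libraries. A further 333 nuclei were dividing-like, and 11309 cells and 2424 nuclei stayed unnamed. The libraries had 99 barcode names in common.

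Deep-layer neurons are the first projection neurons that cortical progenitors make, and they send axons to the thalamus, brainstem and spinal cord. FEZF2 and BCL11B (CTIP2), both zinc-finger factors, direct the corticospinal fate, while the T-box factor TBR1 directs the corticothalamic fate and restrains the FEZF2 programme. SOX5, a SoxD factor, times the order in which these subtypes arise. ZFPM2 (FOG2) is a cofactor of GATA factors and TLE4 is a Groucho corepressor, neither of which binds DNA on its own in this role, and both mark corticothalamic neurons. NEUROD2 and NEUROD6 are basic helix-loop-helix (bHLH) factors of young excitatory neurons that bind E-boxes.

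Each of the genes lies on a chromosome of its own, and they differ widely in length (GRCh38 positions, GENCODE 44). SOX5 (ENSG00000134532, chr12:23529504-24562544, minus strand) and ZFPM2 span 1033 and 1214 kb. TLE4 (ENSG00000106829, chr9:79571773-79726882, plus strand) and BCL11B (ENSG00000127152, chr14:99169287-99272197, minus strand) span 155 and 103 kb. The other four are compact, namely TBR1 (ENSG00000136535, chr2:161416297-161425870, plus strand), FEZF2 (ENSG00000153266, chr3:62369681-62374324, minus strand), NEUROD2 (ENSG00000171532, chr17:39603536-39609777, minus strand) and NEUROD6 (ENSG00000164600, chr7:31337465-31340726, minus strand), the last of 3.26 kb.

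RefSeq promoter windows of 250 bases before the start (GRCh38.p14) were at hand for 6 of the 8 genes. They are shown for NEUROD2 and NEUROD6, whose levels moved together most closely across nuclei clusters, for TBR1, and for TLE4, which went the other way. The RefSeq start differs from the gene model above for NEUROD2, whose window lies inside the GENCODE gene, and for TLE4 and SOX5, whose windows overlap the GENCODE start. A second TLE4 window, not shown, lies inside the gene. Capitals mark the E-box CAGATG on either strand (CATCTG on the other), the form that NEUROD factors bind.
NEUROD2 (chr17:39607921-39608170, minus strand): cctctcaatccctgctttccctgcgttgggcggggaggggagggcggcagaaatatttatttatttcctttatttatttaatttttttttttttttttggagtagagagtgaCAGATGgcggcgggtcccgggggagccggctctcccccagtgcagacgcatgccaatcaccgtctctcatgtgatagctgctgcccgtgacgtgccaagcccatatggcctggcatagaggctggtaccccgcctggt
NEUROD6 (chr7:31340727-31340976, minus strand): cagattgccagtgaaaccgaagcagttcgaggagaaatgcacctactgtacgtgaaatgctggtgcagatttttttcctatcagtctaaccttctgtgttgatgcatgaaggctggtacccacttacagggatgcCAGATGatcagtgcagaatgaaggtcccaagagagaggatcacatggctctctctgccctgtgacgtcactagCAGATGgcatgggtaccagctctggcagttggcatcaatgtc
TBR1 (chr2:161416047-161416296, plus strand): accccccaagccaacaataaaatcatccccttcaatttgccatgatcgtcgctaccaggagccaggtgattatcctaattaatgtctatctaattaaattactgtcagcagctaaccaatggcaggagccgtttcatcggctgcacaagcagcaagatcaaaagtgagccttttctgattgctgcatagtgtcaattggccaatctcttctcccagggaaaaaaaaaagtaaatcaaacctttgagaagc
TLE4 (chr9:79571715-79571964, plus strand): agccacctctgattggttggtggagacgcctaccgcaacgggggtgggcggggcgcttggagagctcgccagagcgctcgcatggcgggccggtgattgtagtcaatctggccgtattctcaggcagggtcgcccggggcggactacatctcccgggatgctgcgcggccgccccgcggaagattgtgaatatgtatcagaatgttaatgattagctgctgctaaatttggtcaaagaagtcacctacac
CAGATG occurred once in the NEUROD2 window and at 2 places in the NEUROD6 window, and at none in those of BCL11B, TBR1, SOX5 and TLE4. Of all 35116 windows of this length, 12.2% held it. The E-box CAGCTG, held by 13.99% of all windows, and the T-box motif TCACACCT (AGGTGTGA on the other strand), held by 0.786%, were in none of the windows of these 6 genes. CAGATG and CAGCTG share their first and last bases but cannot match at the same position.

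The bHLH factors and TBR1 differed most between neurons and progenitors. NEUROD2 stood at 2.88 counts per 10000 in excitatory neuron-like cells (2.64 to 3.43 over 8 sub-libraries) and 0.198 in RG-like cells (0.139 to 0.290), a 14.5-fold difference. In nuclei its level was 0.793 against 0.0403, or 19.7-fold. No sub-library of one type overlapped the other type in either library. In cells NEUROD2 then stood at 1.49 in the IPC-like type with neuronal markers, 0.891 in Cajal-Retzius-like and 0.617 in IPC-like cells. The last 2 of these overlapped over sub-libraries (0.606 to 1.18 and 0.478 to 0.943). The excitatory neuron-like type and the IPC-like type with neuronal markers also led in nuclei.

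In cells NEUROD6 stood at 2.46 in the IPC-like type with neuronal markers and at 2.21 in the excitatory neuron-like type, and their sub-library ranges overlapped. In nuclei the excitatory neuron-like type was higher, at 1.20 (1.14 and 1.27) against 0.862 (0.772 and 0.939). It was 13.1-fold higher in excitatory neuron-like than in RG-like cells (0.168). In nuclei the fold over RG-like (0.0443) was 27.2. In IPC-like cells NEUROD6 reached 1.35 but varied from 0.526 to 2.88 over sub-libraries. The 3 excitatory neuron-like nuclei clusters differed for NEUROD6 alone by more than 2-fold, at 1.40, 1.24 and 0.503. The last of these clusters, led by HGF and CDH13, had at the same time the highest NEUROD2 level of the 3, at 1.03 against 0.695 and 0.831.

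TBR1 had its highest levels in the types with neuronal markers. Its level was 1.41 in excitatory neuron-like cells (1.32 to 1.48) and 1.20 in IPC-like cells with neuronal markers (0.991 to 1.47), which overlapped. RG-like cells stood at 0.0578, which is 24.4-fold below excitatory neuron-like cells. Choroid plexus-like cells, a type that should lack TBR1, stood at 0.0727, within the sub-library spread of the RG-like level. In nuclei the contrast was 46.6-fold, from 1.53 to 0.0328. There the RG-like level lay above the choroid plexus-like one (0.0114, on 4 counts) in both sub-libraries. Cajal-Retzius neurons also make TBR1 as a rule: the 97 Cajal-Retzius-like nuclei stood at 1.32 (1.15 and 1.48 in the 2 sub-libraries), next to the excitatory neuron-like nuclei (1.44 and 1.60), whereas the 529 Cajal-Retzius-like cells, with their markers of other types, stood at 0.391.

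BCL11B was higher in IPC-like than in RG-like barcodes. Its level was 1.12 in RG-like cells, 2.27 in IPC-like, 6.37 in IPC-like with neuronal markers and 6.02 in excitatory neuron-like cells. Nuclei showed 1.14, 2.92, 8.04 and 8.42 in the same order. Excitatory neuron-like exceeded RG-like barcodes 5.37-fold in cells and 7.40-fold in nuclei, with no overlap between sub-libraries. The last 2 types of each order overlapped over sub-libraries in both libraries.

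FEZF2 did not follow BCL11B in cells, the gene it is placed upstream of in corticospinal neurons. Cells gave 0.362 in dividing RG-like, 0.338 in excitatory neuron-like, 0.308 in Cajal-Retzius-like and 0.292 in RG-like barcodes, each overlapping its neighbour over sub-libraries. Excitatory neuron-like against RG-like was 1.16-fold, higher in 6 of 8 sub-libraries, with a log2 difference from -0.38 to 0.88. Its log2 difference ran from -0.13 to 0.22 over the alternative settings, so that its direction in cells was not settled. In nuclei the fold was 1.88 (0.289 against 0.154). FEZF2 thus lacked the neuron over progenitor difference of TBR1 and BCL11B in cells, and choroid plexus-like barcodes were lower, at 0.131 in cells and 0.0142 in nuclei.

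SOX5 peaked in excitatory neuron-like barcodes and stayed high in progenitors. It stood at 49.97 in excitatory neuron-like cells (46.9 to 53.4), 25.2 in dividing RG-like, 21.7 in IPC-like with neuronal markers and 20.8 in RG-like cells. In nuclei the levels were 49.0, 30.9, 21.4 and 31.3. Unlike BCL11B and TBR1, SOX5 was no higher in IPC-like barcodes than in RG-like ones, at 17.8 in cells and 23.7 in nuclei. The neuron over RG-like fold was 2.41 in cells and 1.56 in nuclei. The cell value fell under 2-fold in 4 of the alternative settings, with log2 differences of 0.96 with suspected doublets kept, 0.93 above 2000 transcripts, 0.79 at the stricter mitochondrial limit and 0.65 with types set by gates on single barcodes.

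ZFPM2 (ENSG00000169946, chr8:104590733-105804539, plus strand) was highest in the IPC-like type with neuronal markers. It stood there at 23.7 in cells and 50.8 in nuclei, against 18.3 and 32.5 in excitatory neuron-like barcodes. The sub-library ranges of these types overlapped in cells (19.4 to 26.9 and 14.5 to 20.8) and not in nuclei (48.6 to 53.3 and 31.6 to 33.6). RG-like barcodes stood at 5.17 and 7.16, so that excitatory neuron-like barcodes were 3.54-fold and 4.54-fold higher. IPC-like barcodes held 13.3 and 26.5.

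TLE4 ran against the neuron-enriched genes. It stood at 3.83 in dividing RG-like cells (3.51 to 4.09) and 2.64 in RG-like cells (2.44 to 2.94), and at 0.854 in excitatory neuron-like cells (0.636 to 0.974). Excitatory neuron-like barcodes were 3.10-fold lower than RG-like in cells and 5.32-fold lower in nuclei (0.524 against 2.79), with no overlap. IPC-like barcodes (1.26 and 1.46) and IPC-like barcodes with neuronal markers (0.931 and 0.787) lay between. In cells the type with neuronal markers (0.717 to 1.09 over sub-libraries) overlapped both the IPC-like (1.03 to 1.63) and the excitatory neuron-like type. One of the 2 dividing RG-like cell clusters, led by SV2C and GRIK1, held 5.37, and the other 2.80. Choroid plexus-like barcodes were not low for TLE4, at 1.91 in cells and 2.87 in nuclei.

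**Figure D1:**
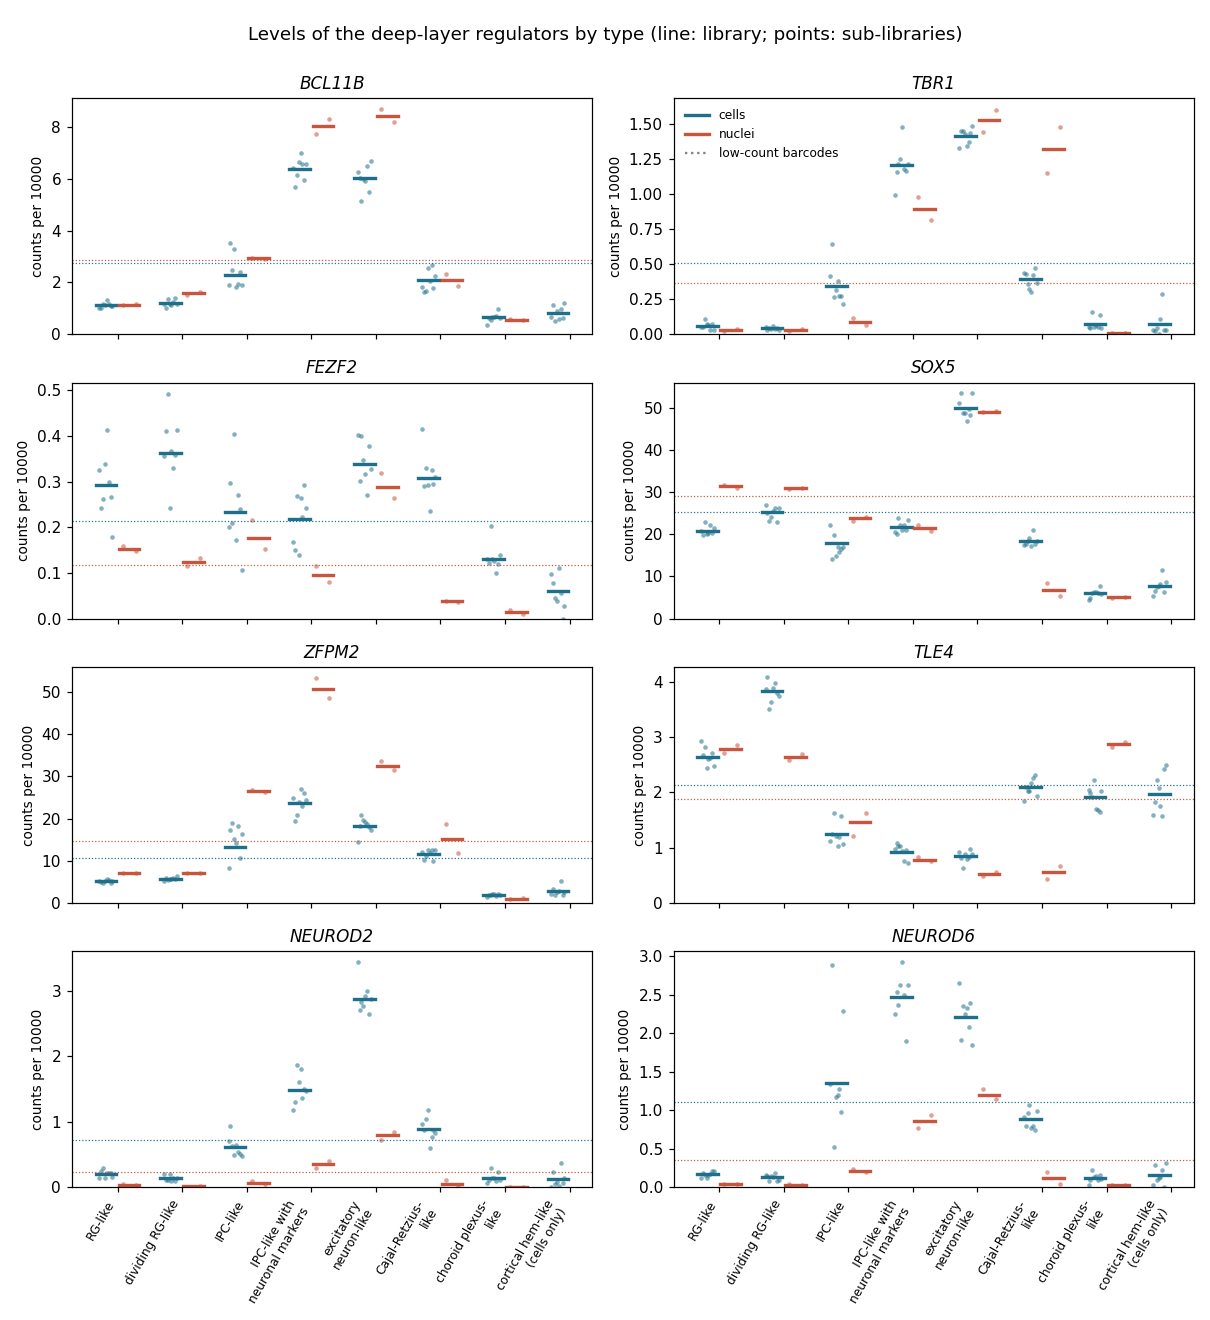
Level of each gene (vertical axis, counts per 10000 transcripts) in 8 marker-defined types, with a line for each library (cells blue, nuclei red), points for its sub-libraries and a dotted line for barcodes of 10 to 100 transcripts. In cells TBR1, BCL11B, NEUROD2 and NEUROD6 peak in the IPC-like type with neuronal markers and the excitatory neuron-like type, and TLE4 is at its lowest in the latter (0.854).

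Over all genes with at least 20 counts in the pair of types, 8.46% were at least 2-fold higher in excitatory neuron-like than in RG-like cells, and 6 of the 8 regulators were. In nuclei the share was 10.9% and 5 of the 8 passed, SOX5 being the one that differed. The share of genes at least 2-fold lower was 12.8% in cells and 22.1% in nuclei, and TLE4 was the only one of the 8 among them in each. The median log2 difference of the 8 was 2.12 in cells and 2.53 in nuclei, against -0.19 and -0.31 over all genes.

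**Figure D2:**
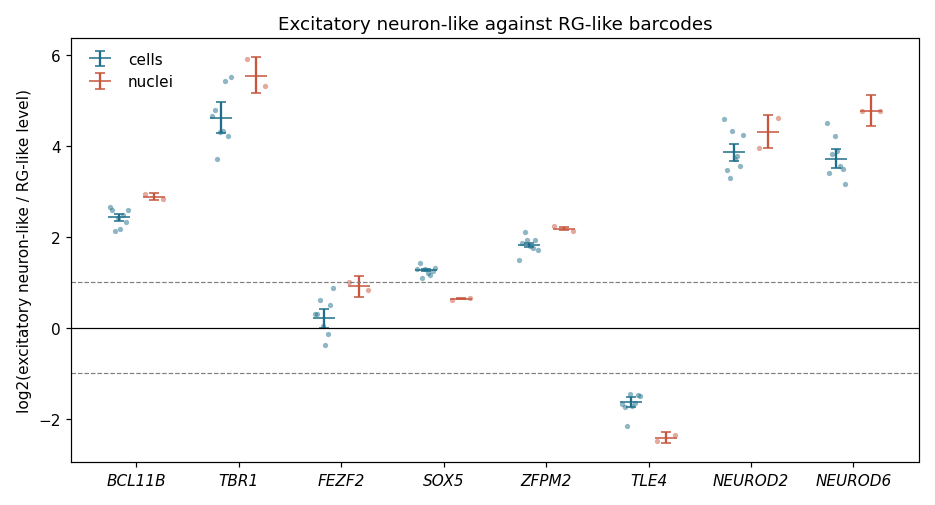
Log2 ratio of the excitatory neuron-like to the RG-like level for each gene, with a bar for the library and its counting interval, points for sub-libraries and dashed lines at 2-fold. TBR1 has the highest ratio in both libraries (4.61 in cells, 5.54 in nuclei) and TLE4 has the only library values below 0 (-1.63 and -2.41).

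The IPC-like types split the set into groups. Against RG-like, 5 of 8 were at least 2-fold higher in IPC-like cells with neuronal markers (6.09% of all genes) and 5 of 8 in the nuclei of that name (7.19%). These were BCL11B, TBR1, ZFPM2, NEUROD2 and NEUROD6 in each library. In the IPC-like type the same genes passed in cells, 5 of 8 (5.42% of all genes), and all of them but NEUROD2 in nuclei, 4 of 8 (5.09%). BCL11B in IPC-like cells was close to the limit, at 2.03-fold with a counting interval of log2 0.88 to 1.16. TBR1 in IPC-like nuclei rested on 18 counts, with log2 0.68 and 2.32 in the 2 sub-libraries. SOX5 and FEZF2 did not pass in either intermediate type. TLE4 was the 1 of 8 at least 2-fold lower in the IPC-like type with neuronal markers (11.7% of all genes in cells, 22.4% in nuclei) and in IPC-like cells (14.3%), and 0 of 8 were lower in IPC-like nuclei (19.3%). Dividing against non-dividing RG-like barcodes gave no gene of the set 2-fold higher (3.83% of all genes in cells, 2.93% in nuclei). Lower by 2-fold was 0 of 8 in cells (5.6% of all genes) and NEUROD2 alone in nuclei (8.8%), at 0.0134 against 0.0403.

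The remaining named types differed from those above and from each other. In Cajal-Retzius-like cells 4 of 8 were at least 2-fold above RG-like cells (8.74% of all genes). These were TBR1 at 6.76-fold, NEUROD6 at 5.25-fold, NEUROD2 at 4.49-fold and ZFPM2 at 2.25-fold. Relative to their level in the low-count barcodes described below, they stood at 0.774 (TBR1), 0.798 (NEUROD6), 1.23 (NEUROD2) and 1.09 (ZFPM2). The Cajal-Retzius-like cells also had the highest median of the named cell types, at 15889 transcripts. The parts of depth and of free RNA in these folds were not tested. In Cajal-Retzius-like nuclei 3 of 8 were higher (13.1% of all genes), with TBR1 at 40.2-fold, and 3 of 8 lower (26.6%), namely TLE4, SOX5 and FEZF2. Of these, FEZF2 rested on 2 counts, and NEUROD6, among the higher, on 6 counts and had opposite directions in the 2 sub-libraries (log2 -0.19 and 2.08). The dividing-like nuclei, with a median of 12828 transcripts, had 4 of 8 higher (7.38%) and 0 of 8 lower (8.11%). These 4 were TBR1, NEUROD6, NEUROD2 and BCL11B, and the part of the high depth of these nuclei in this was not tested.

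Choroid plexus-like barcodes were lower than RG-like ones for SOX5 (3.45-fold in cells, 6.21-fold in nuclei), ZFPM2 (2.69-fold and 7.07-fold) and FEZF2 (2.22-fold and 10.8-fold). These were the 3 of 8 below RG-like by 2-fold in cells (8.83% of all genes). In nuclei TBR1 and NEUROD2 made it 5 of 8 (25.8% of all genes), on 4 and 3 counts in the choroid plexus-like type, and FEZF2 there rested on 5. Cortical hem-like cells were lower for 2 of 8 (6.55% of all genes), FEZF2 at 4.82-fold and SOX5 at 2.66-fold. None of the 8 was 2-fold higher in either type (14% of all genes in choroid plexus-like cells and in such nuclei, 19.2% in cortical hem-like cells).

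The same contrast was read within first-round wells, whose condition is unknown and several of which may hold the same tissue. Wells with at least 20 barcodes of both types numbered 12 of 48 for cells and 12 of 12 for nuclei. BCL11B, TBR1, SOX5, ZFPM2, NEUROD2 and NEUROD6 were higher in the excitatory neuron-like barcodes of 12 of 12 wells in both libraries. FEZF2 was higher in 10 of 12 and 11 of 12, and TLE4 in 1 of 12 and 0 of 12. Over the 16 wells with enough excitatory neuron-like cells, BCL11B ran from 4.31 to 7.86 with a median of 5.78, TBR1 from 0.470 to 3.06 with a median of 1.42, and ZFPM2 from 6.55 to 30.7 with a median of 19.2.

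Some levels differed between barcodes of different depth. In excitatory neuron-like nuclei, SOX5 was 36.2 at 2000 transcripts or fewer and 52.2 above 5000, ZFPM2 went from 23.2 to 35.0, and BCL11B the other way, from 11.9 to 7.81. In cells these levels hardly differed between the same depth classes, with SOX5 at 53.8 and 49.99 and BCL11B at 5.80 and 6.04. In RG-like cells TBR1 was 0.221 in the shallowest class and 0.0546 in the deepest, NEUROD2 0.465 and 0.184, and NEUROD6 0.420 and 0.161. The part of depth in these differences was not tested, and each of the 6 genes higher in neurons stayed so in every depth class.

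What progenitors held was read against 2 backgrounds, the barcodes of 10 to 100 transcripts and the choroid plexus-like type. Low-count barcodes are taken to hold mostly free RNA of the whole preparation. RG-like barcodes stood below them for TBR1 (0.114 of their level in cells, 0.0902 in nuclei), NEUROD6 (0.152 and 0.126), NEUROD2 (0.274 and 0.167), BCL11B (0.408 and 0.395) and ZFPM2 (0.484 and 0.483). They stood above them for FEZF2 (1.37 and 1.31) and TLE4 (1.24 and 1.49), and SOX5 was near them (0.821 and 1.08). IPC-like cells stood below the low-count level for TLE4 (0.589), TBR1 (0.688), SOX5 (0.705), BCL11B (0.829) and NEUROD2 (0.852). They stood above it for FEZF2 (1.09), NEUROD6 (1.23) and ZFPM2 (1.24). IPC-like nuclei stood above their low-count level for FEZF2 and ZFPM2 and near it for BCL11B. They stood below it for TBR1, NEUROD2, NEUROD6, SOX5 and TLE4. TBR1 and NEUROD6 were thus at least 2-fold above RG-like in IPC-like nuclei while below the low-count level. Excitatory neuron-like barcodes were above the low-count level for every gene but TLE4, from 1.59-fold for FEZF2 to 3.97-fold for NEUROD2 in cells.

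**Figure D3:**
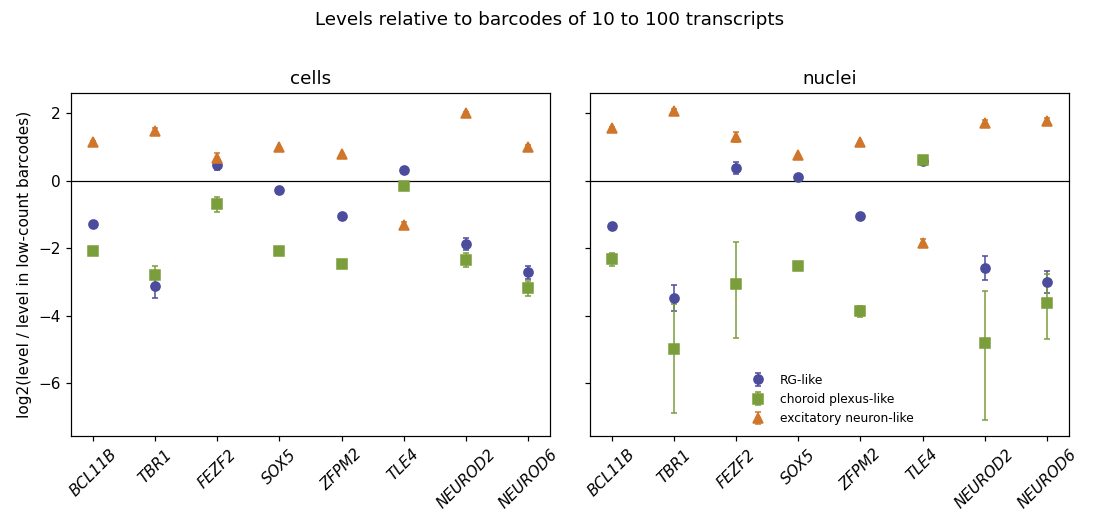
Log2 ratio of each gene's level to that in barcodes of 10 to 100 transcripts (vertical axis) for RG-like, choroid plexus-like and excitatory neuron-like barcodes, with counting intervals. In both libraries RG-like barcodes lie above 0 for FEZF2 and TLE4, and far below 0 for TBR1, NEUROD2 and NEUROD6.

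Shares of barcodes with a transcript of each gene were compared after every barcode was thinned to 1000 transcripts. BCL11B was detected in 42.2% of excitatory neuron-like, 10.7% of RG-like (95% exact interval 9.32 to 12.2) and 4.36% of choroid plexus-like cells (3.27 to 5.68). ZFPM2 gave 71.1%, 35.0% and 15.1%, and SOX5 97.2%, 81.8% and 38.5%. For these genes the RG-like share lay above the choroid plexus-like share beyond counting error. For TBR1 it did not, at 0.760% (0.416 to 1.27) against 0.671% (0.290 to 1.32), nor for NEUROD6, at 1.90% (1.33 to 2.63) against 1.17% (0.643 to 1.96). FEZF2 was detected in 2.61% of RG-like and 0.838% of choroid plexus-like cells, and TLE4 in 21.3% and 14.6%. Before thinning, RG-like cells had a median of 5077 transcripts and choroid plexus-like cells 6553.

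Nuclei gave a like order except for TLE4. BCL11B was detected in 53.8% of excitatory neuron-like, 10.4% of RG-like and 4.02% of choroid plexus-like nuclei, and TLE4 in 4.94%, 21.1% and 24.1%. TBR1 was found in 14.5% of excitatory neuron-like and 0.339% of RG-like nuclei (0.194 to 0.550), and in 0 of 348 choroid plexus-like nuclei, whose exact interval reaches 1.05%. The 5 RG-like nuclei clusters ranged from 0.928 to 1.57 counts per 10000 for BCL11B and from 2.04 to 3.44 for TLE4. SOX5 reached 41.0 in a cluster with 50% of its nuclei from 1 well. Its level was lowest, with a counting interval of 14.4 to 15.6, in the cluster led by the heat-shock genes HSPH1 and HSPA8. The part of stress genes and of the well in these levels was not tested.

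At least 2 of the 8 genes were detected together in 51.2% of RG-like cells (48.9 to 53.5) and 54.8% of RG-like nuclei (53.3 to 56.2), against 16.7% and 11.8% of choroid plexus-like barcodes. These shares belong to the depth of 1000 transcripts: without thinning, the RG-like shares were 90.01% and 83.9%. In excitatory neuron-like barcodes the shares were 89.8% and 93.3%. Most of this in progenitors was SOX5 with ZFPM2, found together in 29.8% of RG-like cells and 37.9% of RG-like nuclei. As given above, RG-like barcodes lay below the low-count level for ZFPM2 and near it for SOX5. The part of free RNA in these joint shares was not tested. Without those genes, at least 2 of the remaining 6 were found in 4.40% and 3.18% of RG-like barcodes and in 27.9% and 22.5% of excitatory neuron-like barcodes. Of BCL11B, TBR1, NEUROD2 and NEUROD6, at least 1 was detected in 14.7% of RG-like cells (271 of 1841) and 11.5% of RG-like nuclei, against 6.79% and 4.31% of choroid plexus-like barcodes. At least 2 of them were found in 0.815% of RG-like cells (0.457 to 1.34), against 0.419% of choroid plexus-like cells (0.136 to 0.975), and these intervals overlap. In nuclei the shares were 0.233% of RG-like and 0 of 348 choroid plexus-like barcodes. The shares with at least 2 of them were 23.4% and 18.2% in excitatory neuron-like barcodes.

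Joint detection of pairs within a type was set against the product of their shares, which is what independent detection would give. Over the 28 pairs in excitatory neuron-like barcodes, the median ratio of joint detection to that product was 1.01 in cells (19 pairs above 1) and 1.00 in nuclei (15 above 1). All pairs of genes detected in at least 1% of these barcodes had a median of 0.923 and 0.977, with 44.2% and 47% of pairs above 1. These pairs were not matched to the 28 for how often their genes were detected, so no excess can be read from the comparison. Ratios ran from 0.368 to 1.47 in cells and from 0.768 to 1.14 in nuclei. SOX5 was detected in 97.2% and 94.6% of these barcodes, so that its pairs had little room to depart from 1 and draw the median toward it.

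BCL11B with TBR1, which mark the corticospinal and the corticothalamic fate, were found together in 62 cells where the product gave 59.1, and in 203 nuclei where it gave 200.0. The bHLH pair NEUROD2 and NEUROD6 was found in 52 cells against 43.5 (ratio 1.20, sub-libraries 0.806 to 2.52) and in 22 nuclei against 22.5. TBR1 with TLE4, both corticothalamic genes, was found in 4 cells against 10.9, a ratio of 0.368 with sub-libraries from 0 to 1.45, but in 17 nuclei against 18.4. The low value in cells thus had no counterpart in nuclei. In the IPC-like type with neuronal markers, BCL11B and TBR1 were found together in 56 cells against 45.0 and 41 nuclei against 31.8. Their ratio over sub-libraries ran from 0.790 to 1.71 in cells and was 1.28 and 1.29 in nuclei.

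**Figure D4:**
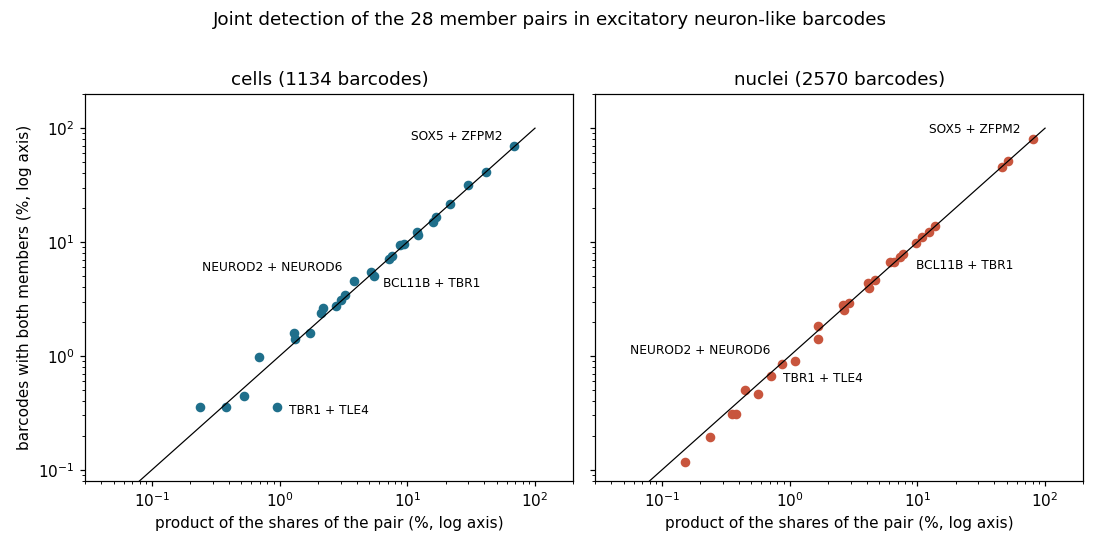
Share of excitatory neuron-like barcodes with both genes of a pair (vertical, percent, log axis) against the product of their shares (horizontal, percent, log axis) for 28 pairs, with the diagonal marking equality. Most pairs lie near the diagonal, and the pair farthest below it is TBR1 with TLE4 in cells (4 cells against 10.9).

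Partners from outside the set gave further pairs. The inhibitory gene GAD1 was found with BCL11B, which inhibitory neurons also make, in 1 excitatory neuron-like cell against 0.845 and 3 nuclei against 1.61. These counts are too few to read a direction. In IPC-like barcodes with neuronal markers, EOMES (TBR2), the T-box factor that precedes TBR1, was found with TBR1 in 7 cells against 8.69 and in 2 nuclei against 3.42. Progenitor factors gave no common direction in RG-like barcodes. SOX2 was found with BCL11B in 43 cells against 53.7 and 55 nuclei against 64.0, and with TLE4 in 123 cells against 107.2 and 137 nuclei against 129.6. PAX6 was found with BCL11B in 52 cells against 45.2 and 111 nuclei against 102.3, and with TLE4 in 87 cells against 90.1 and 201 nuclei against 207.2.

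Levels of different genes were set side by side per length. Per kb of gene, excitatory neuron-like cells held 0.677 counts per 10000 for NEUROD6, 0.461 for NEUROD2, 0.147 for TBR1, 0.0729 for FEZF2, 0.0585 for BCL11B, 0.0484 for SOX5, 0.0151 for ZFPM2 and 0.0055 for TLE4. Per kb of exon the order changed, with SOX5 first at 4.43, then ZFPM2 at 2.28 and NEUROD6 at 1.13. SOX5 and ZFPM2 thus led by exon length but not by gene length. The ratio of the excitatory neuron-like level in nuclei to that in cells was 1.78 for ZFPM2, 1.40 for BCL11B, 1.08 for TBR1, 0.980 for SOX5, 0.855 for FEZF2, 0.614 for TLE4, 0.545 for NEUROD6 and 0.275 for NEUROD2. This order did not follow gene length. In RG-like barcodes the 4 long genes stood apart from the 4 compact ones, with SOX5 at 1.51, ZFPM2 at 1.38, TLE4 at 1.06 and BCL11B at 1.02 above the compact TBR1 (0.567), FEZF2 (0.526), NEUROD6 (0.264) and NEUROD2 (0.203). The libraries also differ in the organoids they hold, and the parts of gene length, compartment and tissue in these ratios cannot be told apart.

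Other genes of the deep-layer programme were compared between excitatory neuron-like and RG-like barcodes. Of a list of 22 corticofugal and deep-layer genes, 7 were at least 2-fold higher in excitatory neuron-like than in RG-like barcodes in both libraries, and 3 were lower, with medians of 0.28 and 0.21 on the log2 scale. Over all 19865 genes compared in both libraries, 6.96% were higher in both and 11.2% lower. The 3 of 22 that were lower were thus near the share over all genes. By the smaller of their differences in the 2 libraries, the highest were HS3ST4, a heparan sulfate sulfotransferase, at log2 3.89 in cells and 4.03 in nuclei, and LMO3, a LIM-only cofactor, at 3.28 and 3.11. LMO3 and BHLHE22, another of the 7, were also markers by which the type was named. NEUROD1 and BCL11A, also of the 7, are counted again below as paralogs. By the same measure the lowest were TSHZ2 (-2.46 and -3.95) and FOXP2 (-1.92 and -2.88), the latter a forkhead factor of layer 6 neurons.

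Of 10 upper-layer and callosal genes compared, 1 was higher in both libraries, the axon guidance receptor PLXND1 (3.54 and 4.26), and 4 were lower, among them the POU factors POU3F4 (-2.65 and -3.57) and POU3F3 (-1.59 and -2.68). Over all genes 6.96% were higher in both and 11.2% lower, so the 1 of 10 was near that share. Some of the other upper-layer genes were higher in excitatory neuron-like than in RG-like cells but lower in nuclei. Of 11 paralogs of the 8 genes, 2 were higher (6.96% of all genes), NEUROD1 (2.50 and 3.61) and BCL11A (2.21 and 1.99). Lower were 3 (11.2% of all genes), among them the SoxD genes SOX6 (-2.65 and -4.33) and SOX13 (-2.56 and -2.71). FEZF1 was also lower, but on only 4 counts in excitatory neuron-like cells and 2 in such nuclei. SOX5 thus differed in direction from the other SoxD genes.

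The genes with the most similar level patterns were sought among 11449 genes over 20 cell clusters and 19 nuclei clusters, by the smaller of the Pearson correlations in the 2 libraries. Clusters of a library share depth and preparation, and the values are descriptions. SEZ6 was closest to both BCL11B and NEUROD2 (0.93 each), PHACTR3 to TBR1 (0.95), ST18 to NEUROD6 (0.93), NFIB to ZFPM2 (0.91), PLPP3 to TLE4 (0.87), BACH2 to SOX5 (0.86) and EFR3B to FEZF2 (0.73). NEUROD2 was also followed by SLC17A7, a vesicular glutamate transporter (0.93). Within the set, NEUROD2 and NEUROD6 correlated at 0.89 and 0.93, BCL11B and TBR1 at 0.85 and 0.86, and TBR1 and TLE4 at -0.71 and -0.89. FEZF2 with BCL11B gave 0.15 in cells and 0.49 in nuclei.

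The unnamed barcodes made up most cells. SOX5, ZFPM2 and BCL11B made 59.0%, 23.7% and 6.81% of the counts of the set in unnamed cells, against 58.3%, 24.6% and 6.32% in low-count barcodes and 60.9%, 22.3% and 7.35% in excitatory neuron-like cells. TLE4 made 3.72% in unnamed cells against 4.92% in low-count barcodes, and NEUROD2 2.32% against 1.67%. In nuclei the first 3 genes made 45.9%, 35.3% and 8.09% in unnamed against 58.5%, 29.8% and 5.79% in low-count barcodes. In excitatory neuron-like cells TLE4 made 1.04% of those counts, and in RG-like cells 8.69%.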

How the data were processed

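Cells and nuclei of cerebral organoids were barcoded by split-seq, in which barcodes are added over successive rounds in wells. The authors demultiplexed the reads and processed them against GRCh38 with the pipeline of Parse Biosciences. They deposited unfiltered transcript counts per gene and barcode, with no normalization and no removal of free RNA. The files hold 254967545 transcripts in 1303455 barcodes for cells and 82339738 in 197446 for nuclei. The 8 genes and the other lists were chosen with earlier results of these data known.

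The limits on barcodes are given in the report. Scrublet marked 0 doublets in both libraries, so the barcodes with the highest scores were left out, 5% (1009 cells) and 3% (427 nuclei). Barcodes were clustered with scanpy 1.11.5 (2000 variable genes without the 8, 30 principal components, 15 neighbours, Leiden resolution 1). A cluster was named where at least 3 markers and 50% of a list stood 1.5-fold above other barcodes. It was left unnamed where it held under 50 barcodes or where over 75% of it came from 1 well. It was also left unnamed where its leading genes held more markers of another type or where markers of 2 types stood at like shares. Division markers did not count as another type for clusters named IPC-like or dividing RG-like. The whole rule was set after the clusters were seen. Folds were computed from summed counts with exact Poisson intervals at 95%, shares with exact Clopper-Pearson intervals after thinning to 1000 transcripts, and pairs as the joint share over the product of shares. Types were made from the barcodes they are compared on, and cells are not replicates, so no test was run. Named besides the 8 were, of each list, up to 2 genes in each direction with the largest change, by the smaller of the 2 libraries' values, among those at least 2-fold apart in both libraries, and the closest genes by pattern. HGF, CDH13, SV2C, GRIK1, HSPH1, HSPA8, KIF20A, CCNB1 and NEUROD4 as leading genes of clusters, and BHLHE22 and FEZF1 as list members, were named after values were seen. Alternatives covered clustering, barcode limits, doublets, thinning, gates, scaling and left-out clusters. The scripts were tested on simulated data with known folds. 1 gene of the lists is not reported here.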

Additional observations from a re-analysis of the deposited data

How the results depend on the processing

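No paired analysis was possible because each library is 1 sample and no test was run. The direction of the excitatory neuron-like against RG-like difference held for the 8 genes under every alternative run, except FEZF2 in cells, which lay between -0.13 and 0.22 on the log2 scale. The number of the 8 at least 2-fold higher was 5 or 6 of 8 under every alternative but a 4-fold limit, which left 4 in cells, and moved with SOX5 in cells and FEZF2 in nuclei. The share of RG-like barcodes with at least 2 of the 8 moved with depth: in cells it was 78.4% after thinning to 2000 transcripts, 90.01% without thinning and 63.1% with gates on single barcodes. In nuclei it was 81.7% after thinning to 2000, 83.9% without thinning, 61.0% with gates, 61.0% over 5000 transcripts, 57.3% over 2000, 55.1% at the 10% mitochondrial limit, 55.2% at resolution 2 and 55.2% with the 8 genes eligible as variable genes. Leaving out RG-like nuclei clusters one at a time gave 56.7% without cluster 2, 53.5% without 3, 56.2% without 4, 52.3% without 5 and 55.2% without 15. The median ratio of joint detection in excitatory neuron-like cells was 1.03 with the 8 genes eligible as variable genes, 1.07 with gates, 1.00 after thinning to 2000 and 1.08 without thinning; in nuclei it was 1.06 with gates, 1.02 without thinning, 1.01 without excitatory neuron-like cluster 10 and 0.998 without cluster 13. The settings that left out clusters or kept only barcodes over 5000 transcripts were chosen after seeing the data. The cause of these shifts was not tested. Few counts of TBR1, NEUROD2 and NEUROD6 in RG-like barcodes limit their folds.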
